A study of Mus musculus with 10 samples.

Results

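Fatty acid elongation and desaturation was followed here through 10 genes, of 41388 genes counted in each liver. They were taken by name: the elongases Elovl1, Elovl2, Elovl3 and Elovl5, the desaturases Fads1, Fads2, Fads3 and Scd2, and Hsd17b12 and Tecr, which reduce the growing chain. All 10 were among the 13444 genes that passed the filter on low counts. RNA was sequenced from the livers of 10 mice of strain C57B/6J, aged 12 weeks, with 1 library per mouse. Nampt encodes nicotinamide phosphoribosyltransferase, the rate-limiting enzyme of NAD+ salvage. WT Refed mice (n = 2) and WT Fasting mice (n = 3) carried LoxP-flanked Nampt on both alleles without Cre, so they are floxed littermates and not unmodified mice. NAMPT LKO Fasting mice (n = 5) carried Albumin-cre as well, which removes Nampt from hepatocytes through development, so that acute and lifelong loss cannot be told apart. The labels give a 24 h fast for both fasting groups, and a 22 h fast followed by 2 h of refeeding for WT Refed. The study's text instead describes randomly fed controls and a shorter fast, so the feeding state of the reference group is uncertain. There was no refed NAMPT LKO group, and the effect of genotype on the response to feeding could not be tested.

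The endoplasmic reticulum lengthens fatty acids in a cycle of condensation, reduction, dehydration and a further reduction. An ELOVL enzyme carries out the condensation and sets which acids are lengthened, while HSD17B12 and TECR carry out the reductions for all of them. FADS and SCD enzymes add double bonds. In the liver these enzymes turn dietary linoleic and alpha-linolenic acids into arachidonic and docosahexaenoic acids, and supply saturated and monounsaturated chains for triglycerides and sphingolipids.

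Nampt was at 78.0 and 67.8 CPM (counts scaled to library size, with TMM factors) in the WT Refed livers and at 63.0, 73.4 and 141 in the WT Fasting livers. In the NAMPT LKO livers it lay between 11.8 and 15.3, with a median of 12.5. Every NAMPT LKO liver was below every WT liver, with a log2 fold change of -2.81 against WT Fasting (SE 0.22, edgeR quasi-likelihood test, adjusted p = 0.00102). Libraries held 30603080 to 43434139 counts. The library of NAMPT LKO mouse 5 stood apart. Genes of the mitochondrial genome took 21.1% of its counts, while the other 4 libraries of that genotype had 10.4% to 12.9%. Its deviation from the mean of each gene followed the gene's GC content (Spearman rho -0.56 over 13369 genes, a description), against -0.032 to 0.27 in the other 9 libraries. Results that rest on it are given with and without it. The 6 hepatocyte markers summed to 58910 CPM or more in every liver, and none was at 0 in any group.

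The genes lie on 6 chromosomes (GRCm38), and 5 of the 10 are on chromosome 19, which holds 3.62% of the genes tested. Fads3 (chr19:10041548-10059671, plus strand), Fads2 (chr19:10064164-10101503, minus strand) and Fads1 (chr19:10182888-10196870, plus strand) lie within 1 cluster. Scd2 (chr19:44293676-44306864) and Elovl3 (chr19:46131897-46135307) lie farther along it, both on the plus strand. Elovl1 is at chr4:118428093-118432953 (plus strand), Elovl2 at chr13:41182495-41220405 (minus strand) and Elovl5 at chr9:77917364-77984519 (plus strand). Hsd17b12 is at chr2:94032689-94157964 and Tecr at chr8:83571700-83594491, both on the minus strand. Reads were counted over the exons of each gene. Exons of Elovl1 overlap those of Cdc20 on the other strand by 53 bases, and exons of Elovl3 overlap those of Pitx3 by 10 bases. Whether counting used strand was not given in the sources used here, but Cdc20 never exceeded 22 counts and Pitx3 never exceeded 198 counts in a library.

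RefSeq start sites gave upstream sequence (GRCm38.p6) for 7 of the 10 genes. Fads1, Elovl3 and Scd2 had no entry. The 250 bases before the start are shown for Elovl1, the gene that was lower in NAMPT LKO Fasting than in WT Refed livers, and for Elovl5 and Fads2, in which 1 library was far above the others of its group. Each is written 5′ to 3′ on the strand of the gene, and capitals mark CCAAT, the NF-Y box, or CACGTG, the E-box, on either strand. The Elovl1 sequence is chr4:118427843-118428092 on the plus strand, that of Elovl5 is chr9:77917115-77917364 on the plus strand, and that of Fads2 is chr19:10101504-10101753 on the minus strand.
Elovl1: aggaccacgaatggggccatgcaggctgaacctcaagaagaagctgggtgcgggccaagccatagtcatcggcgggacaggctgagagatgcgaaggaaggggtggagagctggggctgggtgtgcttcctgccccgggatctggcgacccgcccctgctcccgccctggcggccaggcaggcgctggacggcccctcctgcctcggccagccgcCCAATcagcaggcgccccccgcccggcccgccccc
Elovl5: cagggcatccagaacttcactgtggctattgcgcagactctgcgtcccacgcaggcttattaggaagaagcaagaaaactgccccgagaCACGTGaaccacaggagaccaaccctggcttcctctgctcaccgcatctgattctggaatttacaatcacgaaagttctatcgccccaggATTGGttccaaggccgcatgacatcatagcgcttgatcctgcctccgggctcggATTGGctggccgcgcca
Fads2: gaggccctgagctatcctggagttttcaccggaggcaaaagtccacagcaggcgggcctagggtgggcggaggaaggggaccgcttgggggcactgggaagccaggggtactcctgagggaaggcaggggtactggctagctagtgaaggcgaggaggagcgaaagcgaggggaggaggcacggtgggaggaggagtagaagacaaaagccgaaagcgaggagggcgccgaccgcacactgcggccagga
Elovl1 has an upstream and a downstream start site in RefSeq, and the sequence shown lies before the upstream one. It held an NF-Y box beginning 35 bases before the start, while the window before the other, chr4:118429451-118429700, held none of the motifs searched. Elovl5 held NF-Y boxes at 71 and 17 bases and an E-box at 161 bases. Fads3, Hsd17b12 and Tecr also held NF-Y boxes, and Fads2 and Elovl2 held none of the motifs searched. The search also covered TCACNCCAC, an SREBP site, and a direct repeat of AGGTCA with 1 base between, the kind of element PPARalpha binds. Neither was found before any of the 7 genes. Of 32851 promoters of the same length, 33.8% held the NF-Y box, 6.02% the E-box, 1.05% the SREBP site and 0.0335% the direct repeat. A match describes letters in this window only.

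**Figure D1:**
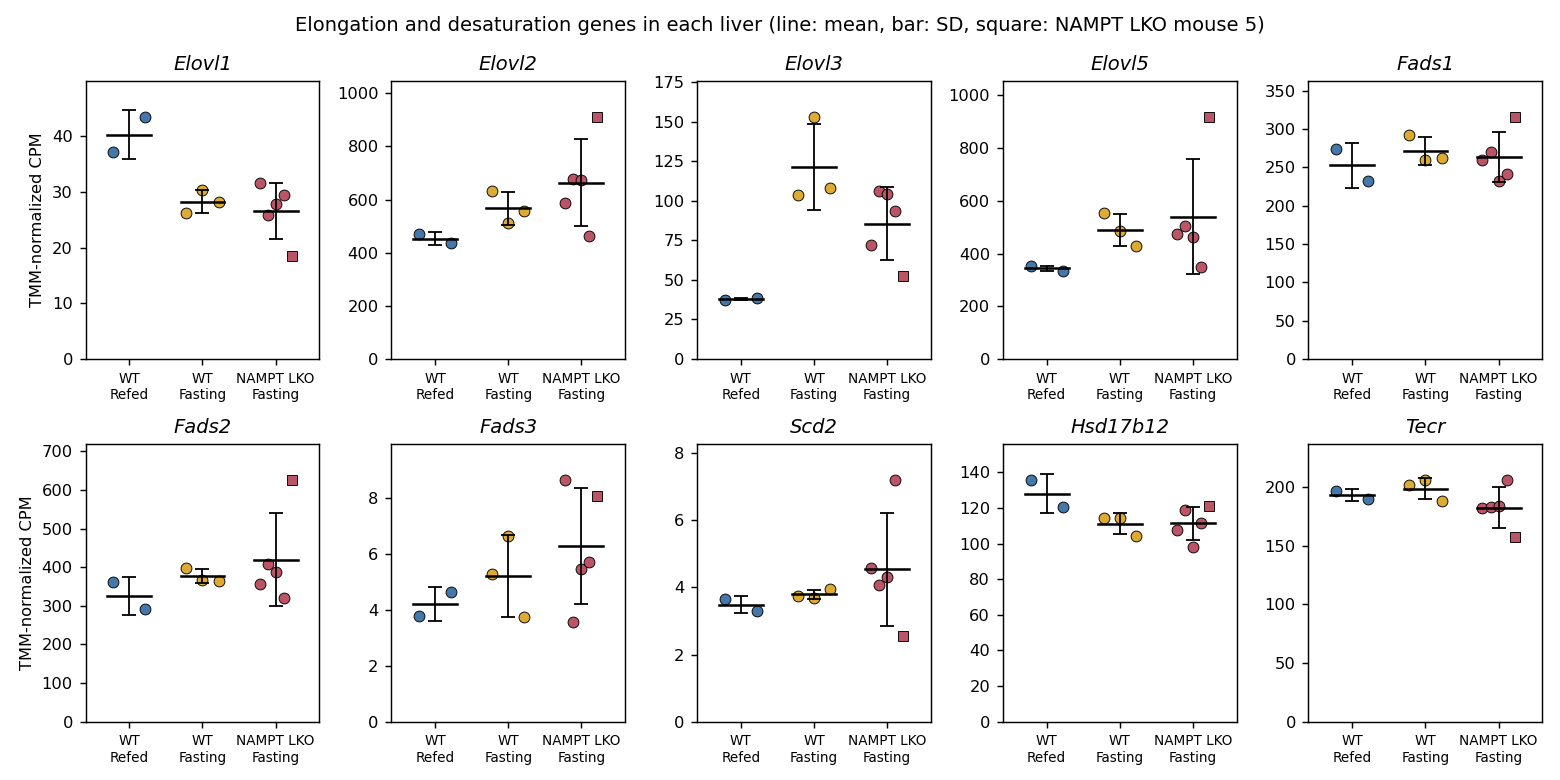
TMM-normalized CPM of the 10 genes in each liver, with the mean (line) and SD (bar) of each group on axes that start at 0. WT Refed livers (n = 2) are blue, WT Fasting (n = 3) yellow and NAMPT LKO Fasting (n = 5) red, with a square for NAMPT LKO mouse 5, and both WT Refed livers are below all 8 fasting livers in Elovl3 and above all 8 in Elovl1.

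Levels per kilobase of transcript spanned a wide range. Fads2 had the highest mean in each group, at 216 CPM per kb in WT Refed, 250 in WT Fasting and 278 in NAMPT LKO Fasting livers. Without NAMPT LKO mouse 5 the last was 244, below WT Fasting. Scd2 had the lowest, at 0.637, 0.695 and 0.832 CPM per kb. In WT Refed livers the order from high to low was Fads2, Tecr, Elovl2, Elovl5, Fads1, Hsd17b12, Elovl3, Elovl1, Fads3 and Scd2, and in that group both libraries of each gene were above both of the next. In WT Fasting livers Elovl3 stood in the fifth place, where it did not separate from Fads1, and Tecr, Elovl2 and Elovl5 did not separate from each other in that order. In NAMPT LKO livers the libraries of the leading 4 genes overlapped with their neighbours down to Tecr. Without mouse 5, Fads2 (213 CPM per kb or more) was clear of Elovl2 (176 or less). Summed over the 10 genes, the level was 1694 to 1870 CPM in WT Refed, 2049 to 2328 in WT Fasting and 1825 to 3128 in NAMPT LKO Fasting livers. The highest of these was mouse 5, and the other 4 NAMPT LKO livers lay between 1825 and 2302 CPM.

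The comparison of WT Fasting with WT Refed livers asked how the pathway differed with feeding in mice that kept Nampt. Elovl3 was the only 1 of the 10 genes that passed the test, and it was higher in fasted livers. Over all genes, 7.04% passed, 2.68% higher and 4.36% lower in WT Fasting. Of the 10 genes, 8 were higher on average and 2 lower, with a median log2 fold change of 0.17, against 0.037 over all genes. In 7 of the 10 the groups did not overlap, where 49.7% of all genes did not, so this count is near the background for so few livers. An exact two-sided permutation test of 3 livers against 2 cannot go below p = 0.2.

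Elovl3 lengthens saturated and monounsaturated acids into very long chains, and in mouse liver it is known for daily variation and higher levels in males. It was at 37.2 and 38.3 CPM in the WT Refed livers, at 103, 153 and 108 in the WT Fasting livers, and at 72.0, 106, 104, 93.6 and 52.3 in the NAMPT LKO livers. The lowest fasted liver, NAMPT LKO mouse 5, was above both refed livers. The group means were 37.7 ± 0.741 (SD, n = 2), 121 ± 27.3 (SD, n = 3) and 85.7 ± 23.1 CPM (SD, n = 5). WT Fasting was 3.22-fold above WT Refed, a log2 fold change of 1.69 (SE 0.29, 95% interval 1.04 to 2.33, edgeR adjusted p = 0.00771). With either WT Refed library left out the log2 fold change was 1.65 or 1.70 and the adjusted p 0.0869 or 0.0936 in the same edgeR test, the lone refed library being taken to vary like the other groups.

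Lists of clock genes and of sex-linked and sex-biased genes were set beside Elovl3. Of 12 clock genes, 1 was called higher and 2 lower in WT Fasting, where 2.68% of all genes were called higher and 4.36% lower. Per1 rose by 0.72 on the log2 scale (edgeR adjusted p = 0.0399), while Per2 had a log2 fold change of -1.70 (edgeR adjusted p = 0.0232) and Dbp one of -1.93 (edgeR adjusted p = 0.0349). Of 11 sex-linked and sex-biased genes tested, 1 was called, a share near the 7.04% of all genes. It was Hsd3b5. This male-biased steroid dehydrogenase of the liver was at 34.2 and 41.0 CPM in WT Refed livers and between 1.86 and 5.77 in WT Fasting livers (log2 fold change -3.46, edgeR adjusted p = 0.0015). The paper used male mice. The Y-linked Ddx3y, Uty, Kdm5d and Eif2s3y were at 10.8 CPM or more in every liver, and Xist was at 1.56 CPM or less. The part of the clock or of sex-biased expression in the difference in Elovl3 was not tested.

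The genes whose pattern over the 10 libraries was most like that of Elovl3 were Pim3, a serine/threonine kinase, and Irf2bp2, a transcriptional cofactor. Likeness was the root mean square difference of the centred log2 levels, which was 0.237 for Pim3 and 0.246 for Irf2bp2, where Elovl3 itself deviated from its mean by 0.651. Their log2 fold changes in WT Fasting against WT Refed were 1.39 and 1.31, a direction that the choice by likeness to Elovl3 in these libraries fixed, so no test is given. Among the other 9 genes of the group the nearest to Elovl3 was Scd2, at 0.610, almost as far as the deviation of Elovl3 itself.

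Elovl1 makes the saturated and monounsaturated very long chains of sphingolipids. It was at 37.2 and 43.4 CPM in the WT Refed livers, at 26.2, 30.3 and 28.3 in the WT Fasting livers, and at 31.6, 25.8, 27.9, 29.4 and 18.5 in the NAMPT LKO livers. Both WT Refed livers were above all 8 fasting livers. The means were 40.3 ± 4.38 (SD, n = 2), 28.2 ± 2.05 (SD, n = 3) and 26.6 ± 5.03 CPM (SD, n = 5). WT Fasting differed from WT Refed by a log2 fold change of -0.51 (95% interval -0.94 to -0.093, edgeR adjusted p = 0.139), which did not pass. It passed without NAMPT LKO mouse 5, which enters this comparison through the shared estimate of the spread (log2 fold change -0.51, edgeR adjusted p = 0.0129).

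The elongases of polyunsaturated acids had higher means in fasted livers, but neither passed the test. Elovl5, which lengthens the products of FADS2, was at 351 and 336 CPM in the WT Refed livers and at 552, 486 and 429 in the WT Fasting livers. Its log2 fold change was 0.51 (95% interval -0.21 to 1.23, edgeR adjusted p = 0.39). Elovl2, which acts on the longer polyunsaturated acids on the way to docosahexaenoic acid, was at 471 and 435 CPM in WT Refed and at 631, 511 and 557 in WT Fasting livers. Its log2 fold change was 0.32 (95% interval -0.19 to 0.83, edgeR adjusted p = 0.452). For both, the WT groups did not overlap, but the intervals included 0.

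None of the desaturases passed. Fads2, which carries out the desaturation that opens the polyunsaturated pathway, was at 361 and 291 CPM in WT Refed and at 398, 368 and 364 in WT Fasting livers. Its log2 fold change was 0.21 (edgeR adjusted p = 0.666). Fads1, which forms arachidonic and eicosapentaenoic acids, was at 273 and 232 CPM in WT Refed and at 292, 259 and 262 in WT Fasting livers. Its log2 fold change was 0.10 (edgeR adjusted p = 0.741). Fads1 overlapped between the groups and Fads2 did not. Fads3, which acts on sphingoid bases, had means of 4.22 ± 0.615 (SD, n = 2) and 5.23 ± 1.46 CPM (SD, n = 3). Scd2, a stearoyl-CoA desaturase that is scarce in adult liver, had means of 3.47 ± 0.252 (SD, n = 2) and 3.79 ± 0.135 CPM (SD, n = 3). Fads3 and Scd2 had counts of 119 to 221 in the WT libraries. Their intervals were wide, from -0.48 to 1.09 and from -0.61 to 0.86 on the log2 scale. That of Elovl5 was also wide, from -0.21 to 1.23, at 14564 counts or more in the WT libraries.

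The reductases shared by all chains had the narrowest intervals of the 10 genes. Hsd17b12 had means of 128 ± 10.8 (SD, n = 2) and 111 ± 5.96 CPM (SD, n = 3), and its log2 fold change was -0.20 (95% interval -0.47 to 0.064, edgeR adjusted p = 0.356). Tecr had means of 193 ± 4.92 (SD, n = 2) and 198 ± 8.97 CPM (SD, n = 3), with a log2 fold change of 0.040 (95% interval -0.24 to 0.32, edgeR adjusted p = 0.888).

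**Figure D2:**
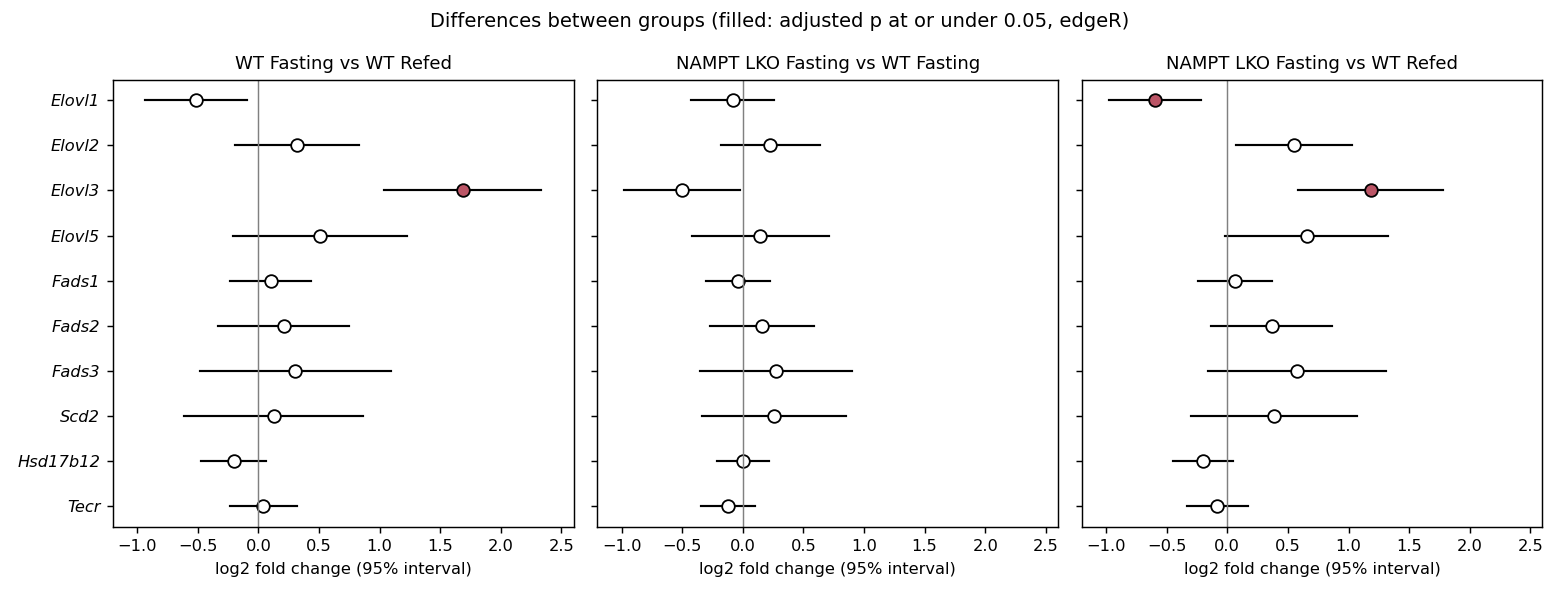
Log2 fold changes of the 10 genes in the 3 comparisons, with 95% intervals from edgeR. Filled points passed at an adjusted p of 0.05 or less: Elovl3 at 1.69 in WT Fasting against WT Refed, none in NAMPT LKO Fasting against WT Fasting, and Elovl3 at 1.18 and Elovl1 at -0.60 in NAMPT LKO Fasting against WT Refed.

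NAMPT LKO Fasting and WT Fasting livers were compared to ask whether loss of hepatocyte Nampt altered these genes during a fast. None of the 10 passed the edgeR test, and 1 had an unadjusted p under 0.05, Elovl3. Over all genes 0.00744% passed, a single gene, Nampt, and 6.03% had an unadjusted p under 0.05. The groups overlapped in all 10 genes, while 3.99% of all genes did not overlap. DESeq2, limma and the edgeR exact test also called 0 of the 10. The median log2 fold change of the 10 was 0.074, against 0.00025 over all genes, with 6 higher and 4 lower. Without NAMPT LKO mouse 5 it was -0.030, against -0.0048 over all genes, with 4 higher and 6 lower.

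Elovl3 had a log2 fold change of -0.50 in NAMPT LKO against WT Fasting livers (SE 0.22, 95% interval -0.98 to -0.023, edgeR adjusted p = 0.827). Without NAMPT LKO mouse 5 it was -0.37 (edgeR adjusted p = 0.604). Intervals were narrowest for Hsd17b12, from -0.21 to 0.22, and widest for Fads3, from -0.36 to 0.90, so changes of different sizes could have been missed. Elovl1, Fads1 and Tecr had log2 fold changes of -0.083, -0.042 and -0.12, with intervals that ran no lower than -0.42. Without mouse 5 they were 0.023, -0.11 and -0.074. Scd2 was at 2.54 to 7.19 CPM in the NAMPT LKO livers, a spread that took in all 3 WT Fasting livers.

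The directions of Elovl5 and Fads2 rested on NAMPT LKO mouse 5. Elovl5 was at 473, 504, 462, 348 and 917 CPM in the 5 NAMPT LKO livers, where the last is mouse 5. Fads2 was at 356, 408, 388, 321 and 626 CPM in the same order. With all 5 livers the log2 fold changes against WT Fasting were 0.14 for Elovl5 and 0.16 for Fads2. Without mouse 5 they were -0.13 (edgeR adjusted p = 0.817) and -0.033 (edgeR adjusted p = 0.955). Elovl2 was at 588, 679, 674, 462 and 910 CPM, and its log2 fold change went from 0.23 to 0.084 without mouse 5.

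**Figure D3:**
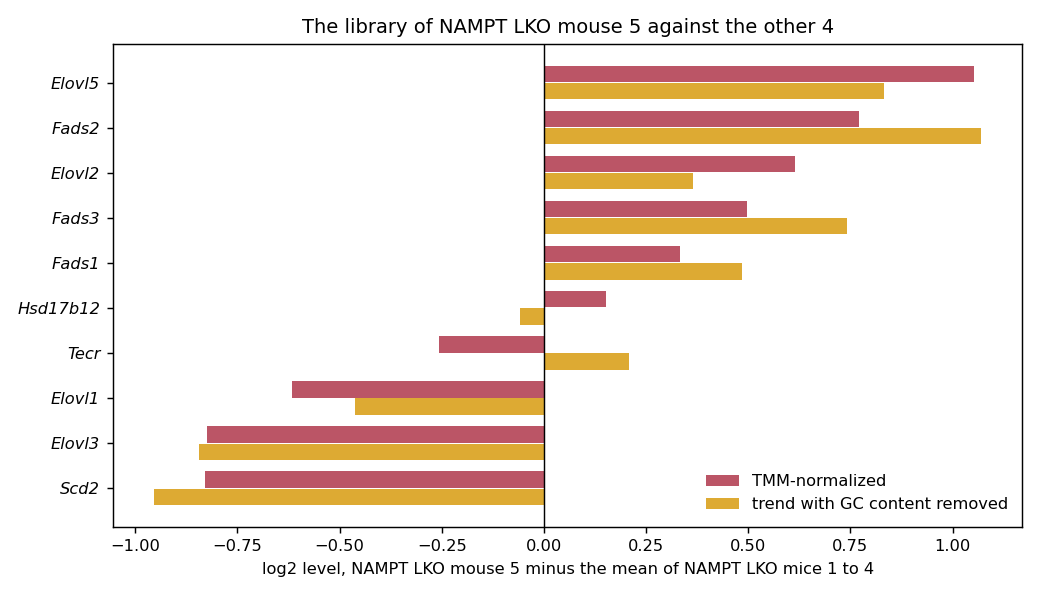
Log2 level of each gene in NAMPT LKO mouse 5 minus the mean of NAMPT LKO mice 1 to 4, before (red) and after (yellow) the trend of each library with GC content was removed. Elovl5 is 1.05 above before and 0.83 above after, Fads2 goes from 0.77 to 1.07, and the direction changes for Hsd17b12 and Tecr.

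Mouse 5 was not shifted alike in all of these genes. It was above the mean of the other 4 in Elovl2, Elovl5, Fads1, Fads2, Fads3 and Hsd17b12 and below it in Elovl1, Elovl3, Scd2 and Tecr. With the trend with GC content removed, its log2 difference went from -0.26 to 0.21 in Tecr and from 0.15 to -0.059 in Hsd17b12. The other 8 genes kept their direction, from -0.95 in Scd2 to 1.07 in Fads2. Fads2 has the second highest GC content of the group, at 54.4% of its longest transcript, and Elovl5 one of the lowest, at 44.8%. The part of GC content in the level of either gene in this library was not tested beyond the removal of that trend.

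NAMPT LKO Fasting livers were also set against WT Refed livers, a comparison in which genotype and feeding cannot be told apart and which shares its samples with the comparisons above. Here 2 of the 10 genes passed: Elovl3 was higher and Elovl1 lower. Over all genes 11.2% passed, 4.65% higher and 6.58% lower, and the groups did not overlap in 33.5%. Elovl3 and Elovl1 were also the 2 of the 10 without overlap. Elovl3 was 2.27-fold higher, a log2 fold change of 1.18 (SE 0.27, 95% interval 0.59 to 1.78, edgeR adjusted p = 0.0192). Without WT Refed library 1 or 2 the adjusted p was 0.16 or 0.178 by edgeR. Elovl1 had a log2 fold change of -0.60 (SE 0.17, 95% interval -0.98 to -0.22, edgeR adjusted p = 0.0487). That call was lost without either WT Refed library, any of the 3 WT Fasting libraries, or NAMPT LKO library 2, 3 or 4, with edgeR adjusted p from 0.058 to 0.383. Elovl2, at 0.55 (edgeR adjusted p = 0.136), and Elovl5, at 0.65 (edgeR adjusted p = 0.202), did not pass. Without NAMPT LKO mouse 5 they were at 0.41 (edgeR adjusted p = 0.0964) and 0.38 (edgeR adjusted p = 0.108).

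The rest of the pathway and the lists around it placed these genes in context. Of 12 other elongation and desaturation genes tested, 0 were called by edgeR in any of the 3 comparisons. Scd1, the main stearoyl-CoA desaturase of adult liver, ranged from 400 to 861 CPM in the 5 WT livers and had a log2 fold change of 0.039 in WT Fasting against WT Refed. Elovl6, which lengthens palmitate, was at 53.4 and 60.7 CPM in WT Refed and at 31.0, 27.5 and 21.2 in WT Fasting livers. Its log2 fold change was -1.10 (edgeR adjusted p = 0.0848). The WT groups did not overlap in Elovl6, yet the difference did not pass.

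A list of 17 genes held lipogenic enzymes and the regulators around SREBP-1, LXR and ChREBP. In WT Fasting against WT Refed 1 of them was called, where 7.04% of all genes were. It was the regulator Insig2, which retains SREBP precursors in the endoplasmic reticulum and rose by 1.77 on the log2 scale (edgeR adjusted p = 0.00274). Fasn, fatty acid synthase, had a log2 fold change of -0.79 (edgeR adjusted p = 0.148) and Srebf1, the gene of SREBP-1, one of -0.22 (edgeR adjusted p = 0.668). Of these 17, Insig2 was called higher and 3 were called lower in NAMPT LKO Fasting against WT Refed: Nr1h3, Fasn and Thrsp. In that comparison 4.65% of all genes were called higher and 6.58% lower. Of 16 PPARalpha targets, 4 were called higher and 0 lower in WT Fasting, where 2.68% of all genes were called higher and 4.36% lower. They were Pdk4, which restrains glucose oxidation, at a log2 fold change of 3.00, the fasting hormone Fgf21 at 2.92, the lipase inhibitor Angptl4 at 2.38 and the lipid droplet protein Plin2 at 1.09. Of the same 16, 8 were called higher in NAMPT LKO Fasting against WT Refed, where 4.65% of all genes were called higher.

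Enzymes that take up the products of elongation also differed between WT Fasting and WT Refed. Of 17 genes for acyl-CoA synthesis and acyl transfer to phospholipids, 3 were called higher and 2 lower, where 7.04% of all genes were called. Lpcat3, which places polyunsaturated chains into phospholipids, was 2.29-fold higher, and Slc27a1, a fatty acid transport protein with acyl-CoA synthetase activity, was 2.00-fold higher. Acsl4, a synthetase that prefers arachidonic acid, had a log2 fold change of -1.14, and Agpat5, an acyltransferase of phospholipid synthesis, one of -0.72. Of 12 genes for peroxisomal chain shortening and 8 for ceramide synthesis, 0 were called in this comparison by edgeR. A few of them were called in NAMPT LKO Fasting against WT Refed, where 11.2% of all genes were called, 4.65% higher and 6.58% lower. Ehhadh of the peroxisomal list was called higher, at 0.76, and of the ceramide synthases Cers4 was higher at 0.87 and Cers2 lower at -0.49. Between NAMPT LKO Fasting and WT Fasting, 0 genes of any of these lists were called by edgeR.

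**Figure D4:**
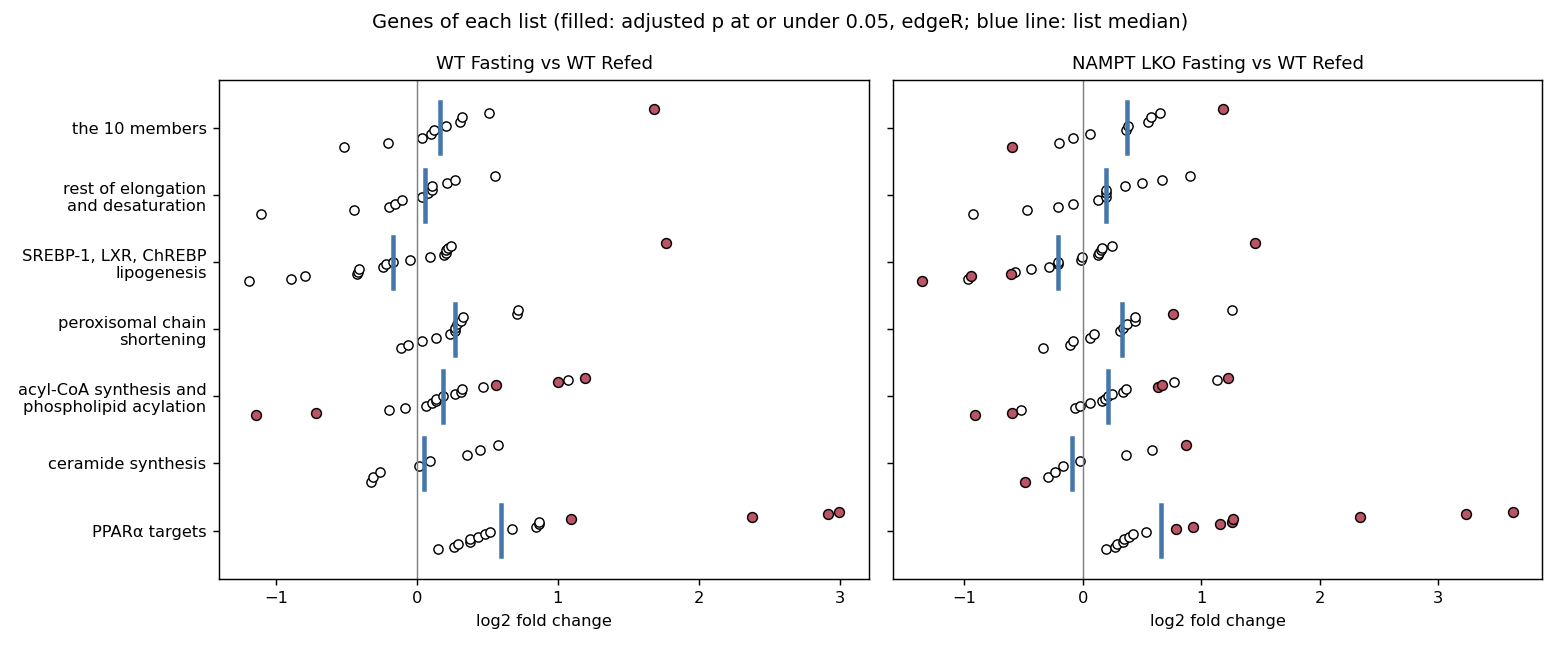
Log2 fold changes of the genes of each list in WT Fasting (left) and NAMPT LKO Fasting (right) against the same WT Refed livers, with filled points for an adjusted p of 0.05 or less and a blue line at the list median. On the left 1 of the 10 genes is filled, 0 of the rest of the pathway and 4 of 16 PPARalpha targets, where 7.04% of all genes passed.

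Markers of other cell types were set beside these values. In bulk liver, fewer cells of a type and less RNA per cell cannot be told apart. The 5 bile duct markers summed to 20.1 to 22.4 CPM in WT Refed, 15.2 to 22.3 in WT Fasting and 34.0 to 54.5 in NAMPT LKO Fasting livers, where no NAMPT LKO liver overlapped a WT liver. The 6 stellate cell markers summed to 178 to 181, 177 to 230 and 216 to 290 CPM, and the 5 Kupffer cell markers to 131 to 152, 171 to 330 and 116 to 264 CPM. Of single genes tested, 49.7% did not overlap between WT Fasting and WT Refed, and 33.5% between NAMPT LKO Fasting and WT Refed. Between the fasting groups it was 3.99%. The bile duct sums separated NAMPT LKO Fasting from WT Refed but not WT Fasting from WT Refed, while the Kupffer cell sums separated only the latter pair. Sums of endothelial markers separated both fasting groups from WT Refed. They ran from 154 to 158.07 CPM in WT Refed, 170 to 184 in WT Fasting and 158.42 to 204 in NAMPT LKO Fasting livers. Sums of lymphocyte and neutrophil markers (6.27 to 8.07 and 8.22 to 15.2 CPM) separated only WT Fasting from WT Refed. Those of red blood cell, adipocyte and pancreatic acinar markers overlapped between the WT groups. The stellate cell and adipocyte sums separated only NAMPT LKO Fasting from WT Refed. The acinar sums separated NAMPT LKO Fasting (3.69 to 5.40 CPM) from both WT Refed (6.66 to 7.17) and WT Fasting livers (6.54 to 6.75). The acinar sum was nearly all Cela1, with means of 6.91, 6.57 and 4.37 CPM in WT Refed, WT Fasting and NAMPT LKO Fasting livers, and Cpa1 and Amy2a5 were at 0 throughout. The part of these markers in the results was not tested.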

How the data were processed

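RNA from 10 mouse livers was sequenced by the authors, who used oligo-dT or poly-A selection and 50-base single reads per their methods. Per the submitters' processing notes in the labels, reads were aligned to GRCm38 with STAR (2.5.1a) and counted with featureCounts (1.4.6-p5); the paper's methods name other versions. The deposited values are counts per gene, CPM and RPKM, where the authors derived CPM from the counts and RPKM from CPM and gene length, and both were checked to follow from the counts. The counts were tested with edgeR (4.0.16): genes with over 1 CPM in at least 1 library, TMM factors, quasi-likelihood test over all 10 libraries with 3 groups, Benjamini-Hochberg adjustment over 13444 genes, and a threshold of 0.05. The paper's voom weights, limma (3.58.1), DESeq2 (1.42.0), the exact test, other filters and scalings, and leaving out each library were alternatives. Removal of the trend with GC content (loess span 0.5) was chosen after the data were seen. The members and lists were chosen with earlier results of these data known. All 10 members were named, and of each list at most 4 called genes by p, plus Scd1, Elovl6, Srebf1 and Fasn, and the 2 genes nearest in pattern to each member called in WT Fasting against WT Refed. On simulated counts for that comparison over 13444 genes, 68 of 100 genes changed by a log2 of 1 and 98 of 100 changed by a log2 of 2 were recovered. The changed genes were drawn from those at higher mean levels, so recovery was not measured at the lowest levels tested. No simulated library was given a trend with GC content. Replicates are separate mice. The libraries WT Fasting and NAMPT LKO Fasting share numbers 1 to 3 but come from different mice.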

Additional observations from a re-analysis of the deposited data

Results flagged for a closer look

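In NAMPT LKO mouse 5 the level of Elovl5 was far from the other 4 NAMPT LKO livers, at 917 CPM against 348 to 504, and the gap to the nearest was 0.726 of the range of the group. Fads2 in the same library was at 626 CPM against 321 to 408, with a gap of 0.713 of the range. Both exceed Dixon's limit of 0.71 for 5 samples. Of 11 values examined, 2 were over it, where chance alone gives 0.55. This is also the library with the highest share of mitochondrial counts and the strongest relation to GC content. The part of these in the 2 values was not tested beyond the removal of the trend with GC content, after which the library stayed above the mean of the others by 0.83 in Elovl5 and 1.07 in Fads2 on the log2 scale.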

How the results depend on the processing

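The Elovl3 call in WT Fasting against WT Refed held in every alternative that kept both WT Refed libraries, and in all alternatives its log2 fold change lay between 1.49 and 1.78. The count of genes called there was 946, and it was 1646 with DESeq2, 3331 with limma and its quality weights, 1617 with the libraries of the 2 groups alone, 1480 with the trend with GC content removed, and 107 to 2235 with 1 library left out. The count of members was 1, and it was 3 with limma, 2 with the 2 groups alone, and 0 to 2 with 1 library left out. With limma Elovl1 (adjusted p = 0.00861) and Elovl5 (adjusted p = 0.0252) also passed.

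In NAMPT LKO Fasting against WT Fasting 1 gene was called, and 2 when library size replaced the TMM factors, 17 with no filter beyond 1 count, 3 with edgeR's own filter, 21 with DESeq2, 24 with the edgeR exact test, 3 with the trend with GC content removed, and 1 to 2 with 1 library left out. In NAMPT LKO Fasting against WT Refed 1510 genes were called, 4281 with limma and 226 to 2835 with 1 library left out. The 2 members called became 1 with library size alone, with edgeR's own filter and with the 2 groups alone, 4 with limma, and 0 to 2 with 1 library left out. Library size alone moved the split of higher and lower calls from 360 and 586 to 252 and 727 in WT Fasting against WT Refed, and from 625 and 885 to 371 and 1051 in NAMPT LKO Fasting against WT Refed.

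Directions turned only in members that did not pass. In WT Fasting against WT Refed, Tecr was at -0.025 with library size alone and -0.0077 with the trend removed, and Fads1 ran from -0.019 to 0.21 with 1 library left out. In NAMPT LKO Fasting against WT Fasting, limma gave -0.11 for Elovl5, -0.077 for Fads3 and -0.033 for Hsd17b12. Hsd17b12 was at -0.027 with library size alone, -0.0079 with no filter and -0.061 with the trend removed, which put Fads1 at 0.011. With 1 library left out Elovl1 ran from -0.15 to 0.023, Elovl5 from -0.13 to 0.27, Fads1 from -0.11 to 0.016, Fads2 from -0.033 to 0.24 and Hsd17b12 from -0.041 to 0.046. In NAMPT LKO Fasting against WT Refed, Fads1 was at -0.040 with library size alone and ran from -0.061 to 0.17 with 1 library left out. The cause was not tested.

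A replicate block was fitted over libraries 1 to 3 of NAMPT LKO Fasting and WT Fasting. With it edgeR called 0 genes and 0 members, as it did in those libraries without the block. Elovl1 was at 0.0088, Elovl5 at -0.023 and Hsd17b12 at -0.042 with the block, and at 0.011, -0.030 and -0.039 without it. Deviations of samples with the same number correlated at 0.0924, 0.0964 and 0.0908, each the best match of its sample. Pairs with different numbers ran from -0.16 to 0.040. The samples are different mice, and the labels do not say what a shared number stands for.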
